A study of Rattus norvegicus with 6 samples.

Results

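Collagen genes were compared between rat cardiomyocyte cultures given an siRNA against DYRK1A and cultures given a control siRNA. They were taken as every row of the deposited count table whose gene name was Col, a number, the letter a and a number. This gave 44 rows with 43 gene symbols among 43035 features, since Col23a1 was listed in 2 rows. By structural class, 10 rows were fibrillar collagens, 6 were basement membrane collagens of type IV, 9 were FACIT collagens and 19 were other collagens. Of the 45 symbols in the class list, 2 are not analysed here.

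Collagens are secreted proteins whose chains wind around each other into a triple helix, and they form most of the protein of the extracellular matrix. Fibrillar collagens pack into the fibrils that give the heart wall its tensile strength, and type IV chains form the sheet-like network of the basement membrane around each cardiomyocyte. FACIT collagens, fibril-associated collagens with interrupted triple helices, sit on the surface of fibrils. The other class takes in the beaded filaments of type VI, the short-chain networks of types VIII and X, and collagens that cross the cell membrane. In the heart, cardiac fibroblasts are known as the main source of fibrillar collagen.

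All 6 libraries came from cardiomyocytes of Sprague-Dawley rats, of postnatal day 1 per the labels, grown in primary culture in a standard culture medium (DMEM) holding 10% fetal serum. The control group, si-NC, received a scramble siRNA, and the other group was labelled si-DYRK1A after the siRNA against DYRK1A, a protein kinase. RNA was collected after 48 h in both, with 3 biological replicates in each group per the labels, which do not say how many animals each culture held. The libraries held 10325074 to 11921772 counts. The row of Dyrk1a itself had 0 to 3 counts per library. An unannotated row over Dyrk1a did not pass the test between groups (log2 fold change 0.084, adjusted p = 0.374, edgeR). The counts therefore do not check the labels, and every direction given here rests on them.

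Over all features tested, 8.03% passed as higher in the si-DYRK1A-labelled libraries and 7.19% as lower (edgeR, adjusted p below 0.05). Of the cardiomyocyte marker list, 4 of 6 tested genes passed as higher in these libraries (Tnni1, Actn2, Pln and Nppa). The summed level of the 11 listed genes in the table lay between 11232 and 12325 CPM in si-NC and between 13662 and 14549 CPM in the others, where CPM is counts of a gene scaled to a library of fixed size after TMM normalization. Nppa made up most of this sum, with means of 7557 CPM in si-NC and 9782 CPM in the others. The other tested genes of the list, Myl3 and Tnnt2, were lower and did not pass. The defining genes Myh6, Myh7, Tnni3 and Myl2 were at 0 counts, each lying under an unannotated row. Of the fibroblast list, from which collagens were left out, 3 of 8 tested genes passed as higher (Lum, Postn and Vim), none as lower, and Pdgfra, Ddr2 and Fbn1 were at 0 and likewise covered. Of the tested genes of both lists, Tnni1, Tnnt2, Postn, Dcn, Fbln2, Fn1 and S100a4 also lay under unannotated rows, which were not examined. The fibroblast sum was 4306 to 4556 CPM in si-NC and 5079 to 5329 CPM in the si-DYRK1A-labelled libraries. Vim made up most of it, with means of 3509 and 4115 CPM. Of the tested fibroblast genes that did not pass, Fn1 and S100a4 were lower and Tcf21, Dcn and Fbln2 higher. The epicardial list moved the other way, with 4 of 4 tested genes lower (Upk3b, Msln, Wt1 and Krt19) and Tbx18 at 0, its sum lying at 91.6 to 96.6 CPM against 70.3 to 73.8 CPM. Of the endothelial list, Cdh5 and Tek passed as lower among 6 tested, with Flt1 at 0. Lyz2 of the macrophage list passed as higher and S100b of the Schwann list as lower. The part of these cell type markers in the collagen differences was not tested. In bulk RNA, fewer cells of a type and less RNA per cell cannot be told apart.

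Unannotated rows carried the counts of many collagen genes. Such a row is a transcript that the authors added to the annotation, and it was taken to cover a gene when it lay on the same strand and overlapped at least 50% of the gene. Of the 44 collagen rows, 34 had counts and 10 had 0 counts in every library, which at these depths allows a level of up to 0.252 to 0.291 CPM (3 counts per library, counting error only). Each of the 10 genes at 0 was covered: Col4a2, Col4a5, Col4a6, Col6a6, Col7a1, Col8a1, Col12a1, Col14a1, Col18a1 and Col27a1. In all, 18 collagen genes had a covering row, and the authors' annotation listed a collagen domain for all 18 covering rows. No library reached 10 counts for 11 of the 18 covered genes, and for 2 of the 26 rows without a cover. For Col5a1, the covering row held 52535 counts over the 6 libraries and the gene's own row 571. The reverse held for Col5a2, Col5a3, Col6a1, Col6a3 and Col24a1, whose own rows held most of the counts. A count of 0 in a gene's row therefore did not show that the gene was silent, and covering rows are given beside the genes below.

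**Figure D1:**
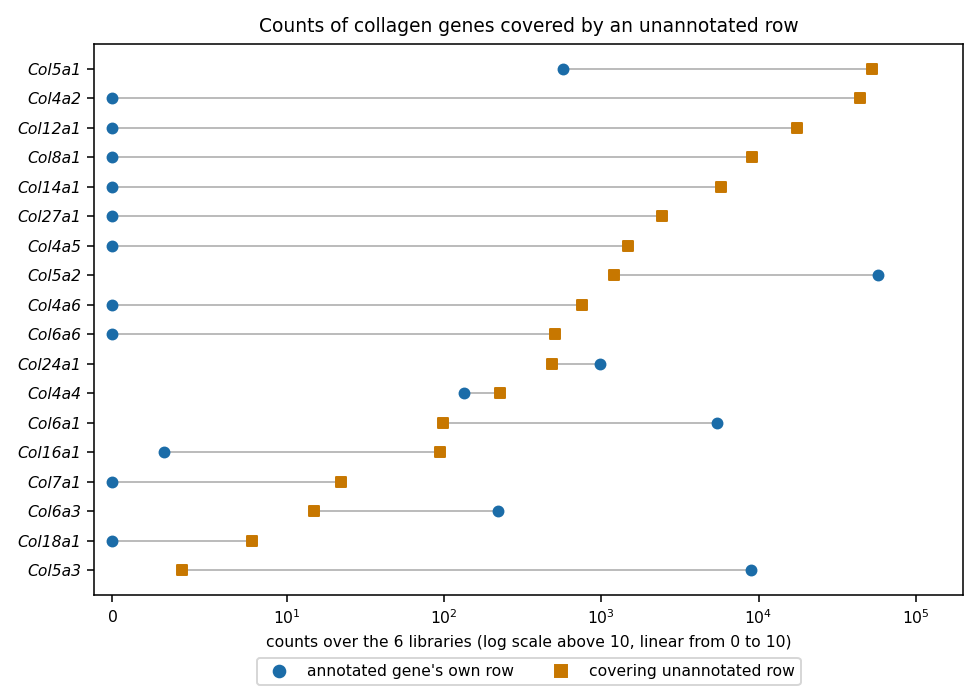
Counts summed over the 6 libraries (x axis, logarithmic above 10 and linear from 0 to 10) for the 18 collagen genes covered by an unannotated row (y axis), with circles for the gene's own row and squares for the covering row. The squares of Col4a2, Col12a1, Col8a1, Col14a1 and Col27a1 lie far to the right while their circles lie at 0.

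Among all features tested, 15.2% passed the edgeR quasi-likelihood test at an adjusted p below 0.05. Relative to si-NC, 8.03% were higher in the si-DYRK1A-labelled libraries and 7.19% lower. Of the 44 collagen rows, 30 had enough counts to be tested and 8 of these passed, a share of 26.7%. Higher in the si-DYRK1A-labelled libraries were Col24a1, Col9a3, Col10a1 and Col19a1, and lower were Col11a1, Col8a2, Col17a1 and Col22a1. The median log2 fold change of the 30 tested rows was 0.031, beside 0.0020 over all features tested. By class, 2 of 9 tested fibrillar rows passed (1 higher, 1 lower), 0 of 3 type IV rows, 3 of 6 FACIT rows (2 higher, 1 lower) and 3 of 12 other rows (1 higher, 2 lower). The class medians were 0.029 for fibrillar, 0.032 for type IV, 0.20 for FACIT and 0.22 for other collagens. Of the 14 covering rows tested, 3 passed as higher, those over Col8a1, Col5a1 and Col27a1, and none as lower. DESeq2, another test for counts, called Col24a1 higher and Col1a1, Col11a1, Col8a2 and Col17a1 lower, and it called the rows over Col8a1 and Col5a1 higher. For Col10a1 and Col19a1 DESeq2 gave no adjusted p. Before adjustment, 10 collagen rows were higher and 6 lower at p below 0.05, and of the covering rows 4 were higher and 0 lower. The share of all features at that level was not counted, so these numbers do not show an excess among collagens. No class had all of its tested rows called.

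**Figure D2:**
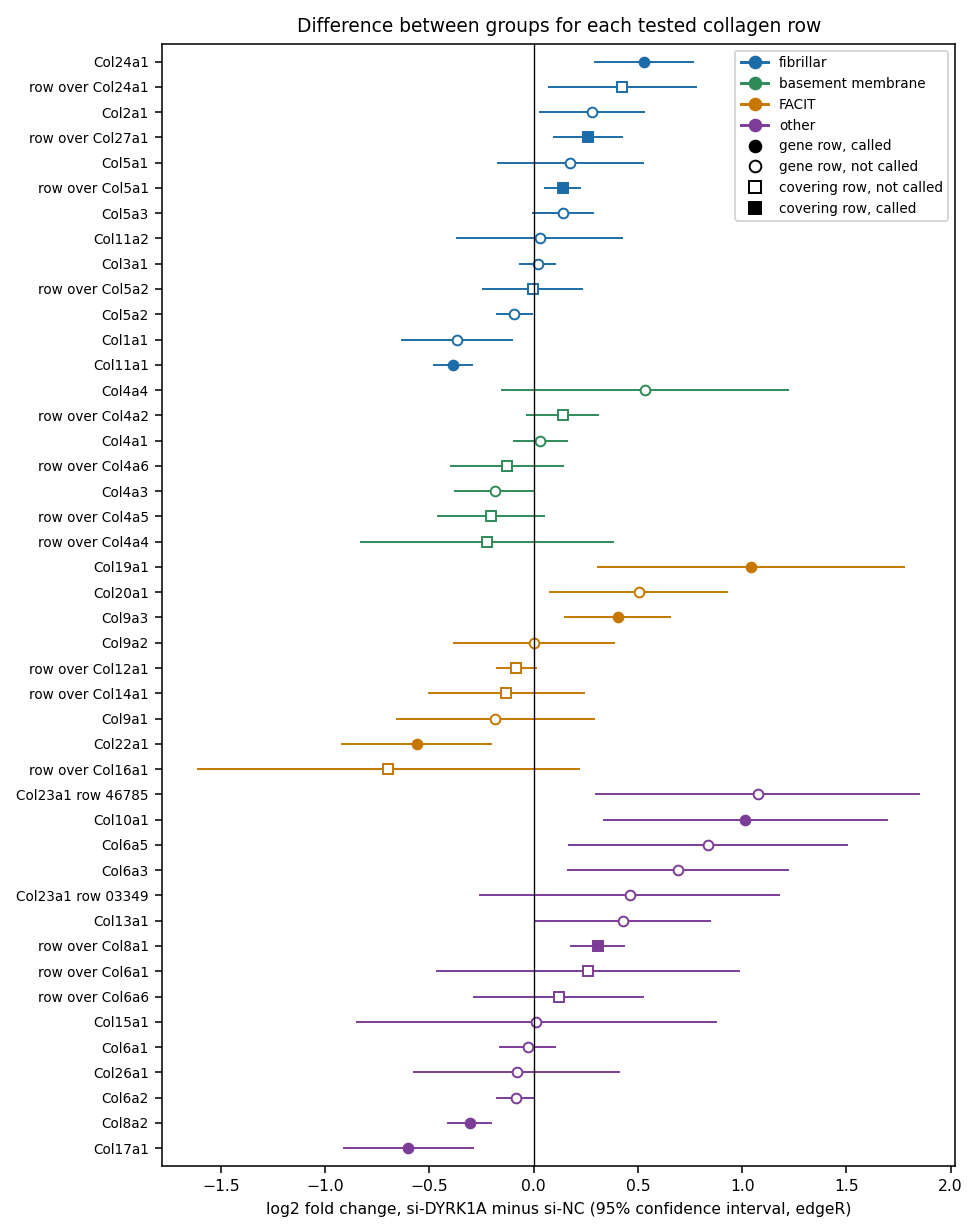
Log2 fold change of each tested collagen row (x axis, si-DYRK1A-labelled libraries minus si-NC, with 95% confidence intervals from edgeR, n = 3 libraries per group), grouped by class (colour), with circles for genes, squares for covering unannotated rows and filled symbols for rows that passed the test. Filled symbols lie on both sides of 0 in the fibrillar, FACIT and other classes, and none lies in the basement membrane class.

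By deposited FPKM, a level per length, Col1a1, Col3a1 and Col4a1 stood far above the rest. Col1a1 encodes a chain of type I collagen, the main fibril collagen of the heart, and it had the most counts of all 43035 features in every library. Col3a1 encodes the chain of type III collagen, found in the same tissues, and ranked 3 or 4 by counts, and Col4a1 ranked 4 or 5. The 44 collagen rows held 3.44%, 3.84% and 3.19% of all counts in si-NC replicates 1, 2 and 3, and 3.03%, 3.12% and 3.17% in the si-DYRK1A-labelled libraries. The si-NC shares were all above the others, the nearest pair lying close together. Without Col1a1 the shares were 2.03%, 2.18% and 1.93% against 1.95%, 2.02% and 2.06%, and the groups overlapped.

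**Figure D3:**
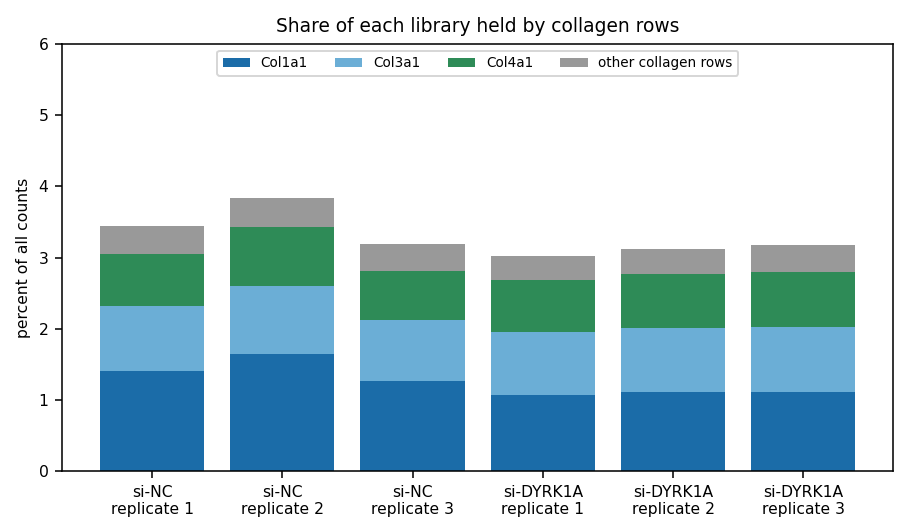
Share of all counts of each library held by collagen rows (y axis, percent, bars from 0), split into Col1a1, Col3a1, Col4a1 and all other collagen rows (colour), for the 6 libraries (x axis). The Col1a1 part is smaller in the 3 si-DYRK1A-labelled libraries, and the remaining parts are of like height in both groups.

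Col1a1 (ENSRNOG00000003897, chromosome 10, 82745801 to 82762789, plus strand of Rnor_6.0, as are all positions of table rows here) had 13986, 16411 and 12627 CPM in si-NC replicates 1, 2 and 3 and 10899, 11155 and 11285 CPM in the si-DYRK1A-labelled libraries. Every si-NC library was above every other library, and si-NC replicate 2 was the highest. On the log2 scale the groups differed by -0.37 (standard error 0.102, 95% confidence interval -0.63 to -0.10, adjusted p = 0.0869, edgeR), which did not pass the test. The exact permutation test gave p = 0.1, the smallest possible with 3 libraries against 3. Col1a1 passed under 5 of 17 alternatives. These were without si-NC replicate 2 (adjusted p = 7.22e-05, edgeR) or 3 (0.00177), by DESeq2 (adjusted p = 0.0122), by limma-voom (adjusted p = 0.00447) and with replicate number as a block (adjusted p = 0.00353, edgeR). Among the 12 under which Col1a1 did not pass, the adjusted p was 0.166 without si-NC replicate 1. Without si-DYRK1A replicates 1, 2 and 3 it was 0.242, 0.189 and 0.139 (edgeR). Col3a1 (ENSRNOG00000003357, chromosome 9, 52023295 to 52059217, plus strand) had 8983, 9497 and 8526 CPM in si-NC and 8953, 9107 and 9321 CPM in the si-DYRK1A-labelled libraries, ranges that overlapped almost wholly. The fitted log2 difference came to 0.020 (standard error 0.0408, 95% confidence interval -0.065 to 0.10, adjusted p = 0.807, edgeR), and its sign turned without si-NC replicate 3 (-0.025) and with scaling by library size alone (-0.0062). Per length, Col1a1 was above Col3a1 in each si-NC library, with FPKM values of 2378, 2809 and 2155 against 1867, 1987 and 1779. In the si-DYRK1A-labelled libraries the FPKM values were 1853, 1899 and 1918 for Col1a1 and 1861, 1895 and 1936 for Col3a1, and the ranges of the genes overlapped.

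Type V and type XI chains join in the same fibrils and are known to set fibril diameter. Col11a1 (ENSRNOG00000023148, chromosome 2, 216863428 to 217056523, plus strand), a chain of type XI collagen, had the smallest adjusted p of all collagen genes. It had 484, 501 and 501 CPM in si-NC and 384, 357 and 395 CPM in the si-DYRK1A-labelled libraries. The si-NC libraries lay within a narrow range, and no si-DYRK1A-labelled library came near it. The gene was 1.31-fold lower, a log2 fold change of -0.39 (standard error 0.0448, 95% confidence interval -0.48 to -0.29, adjusted p = 2.98e-06, edgeR), and it passed under all 17 alternatives run. Its partner Col11a2 had 61 to 91 counts per library and a log2 difference of 0.029 (adjusted p = 0.946, edgeR), with a sign that turned without si-NC replicate 2 (-0.10) and without replicates 2 (-0.053) or 3 (-0.064) of si-DYRK1A.

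Of type V, the row over Col5a1 (chromosome 3, 6430201 to 6581348, plus strand) had 721, 739 and 752 CPM in si-NC and 829, 784 and 825 CPM in the si-DYRK1A-labelled libraries. The groups did not overlap, and the difference was small, a log2 fold change of 0.14 (standard error 0.0408, 95% confidence interval 0.055 to 0.22, adjusted p = 0.0220, edgeR). The test was no longer passed without si-NC replicate 1 (adjusted p = 0.114, edgeR) and without replicates 1 (0.0872) or 3 (0.115) of si-DYRK1A, nor with scaling by library size alone (0.0565). The gene's own row, with 80 to 109 counts per library, gave a difference of 0.18, adjusted p = 0.548 (edgeR). Col5a2 (ENSRNOG00000003736, chromosome 9, 52092511 to 52238564, minus strand) had 863, 902 and 867 CPM against 815, 830.5 and 824 CPM, lower in every si-DYRK1A-labelled library, yet its log2 fold change of -0.092 (standard error 0.0395, 95% confidence interval -0.17 to -0.0100, adjusted p = 0.130, edgeR) did not pass. With scaling by library size alone it did (adjusted p = 0.0435, edgeR). The row over Col5a2 held 20.3, 17.2 and 16.1 CPM and 16.1, 19.6 and 17.7 CPM and did not pass (log2 fold change -0.0039, adjusted p = 0.988, edgeR). Its sign turned without si-NC replicate 1 (0.094) or si-DYRK1A replicate 1 (0.064). Col5a3 (ENSRNOG00000020525, chromosome 8, 21786324 to 21831668, minus strand) had 120.2, 139 and 118 CPM and 128, 139 and 149 CPM, which overlapped (log2 fold change 0.14, adjusted p = 0.200, edgeR). Without si-NC replicate 2, the highest of its group, Col5a3 passed as higher (adjusted p = 0.0168, edgeR).

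The FPKM ratio of chains within a library does not depend on library scaling. The ratio of the row over Col5a1 to Col5a2 was 0.438, 0.430 and 0.455 in si-NC and 0.533, 0.495 and 0.525 in the si-DYRK1A-labelled libraries. The groups did not overlap and the ratio was 1.17-fold higher (exact permutation test, p = 0.1, adjusted p = 0.25 over the 5 ratios run). It was added with the data in view. With Col5a1's own row in its place the ratio was 0.00625 ± 0.000937 and 0.00750 ± 0.00120 (SD, n = 3 each; exact permutation test, p = 0.3, adjusted p = 0.375).

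Col24a1 (ENSRNOG00000014143, chromosome 2, 251200686 to 251434932, plus strand), a minor fibrillar collagen known from developing bone and the eye, had 12.4, 11.8 and 11.5 CPM in si-NC and 17.2, 18.3 and 16.1 CPM in the si-DYRK1A-labelled libraries. All si-DYRK1A-labelled libraries were above all si-NC libraries, 1.44-fold on average, with a log2 fold change of 0.53 (standard error 0.113, 95% confidence interval 0.29 to 0.76, adjusted p = 0.00234, edgeR). The row over Col24a1 had 6.33, 7.10 and 5.10 CPM and 8.09, 8.76 and 8.05 CPM, again without overlap, and on its own did not pass (log2 fold change 0.43, adjusted p = 0.102, edgeR). Summed, both rows gave 0.49 on the log2 scale (adjusted p = 0.00112, edgeR).

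Col27a1, a fibrillar collagen known from cartilage, had 0 counts in its own row. The row over Col27a1 (chromosome 5, 79054717 to 79172441, plus strand), which also spans Mir455, had 33.7, 34.2 and 30.8 CPM in si-NC and 38.7, 40.8 and 38.6 CPM in the si-DYRK1A-labelled libraries. It was higher in each of the latter, with a log2 fold change of 0.26 (standard error 0.0783, 95% confidence interval 0.10 to 0.42, adjusted p = 0.0265, edgeR). With each library left out in turn, that call held only without si-NC replicate 2, with adjusted p of 0.0553 and 0.114 without si-NC replicates 1 and 3, and of 0.0541, 0.112 and 0.0596 without si-DYRK1A replicates 1, 2 and 3 (edgeR). DESeq2 did not call it either (adjusted p = 0.0990). Col2a1, the collagen of cartilage, had 146 to 214 counts per library and a log2 fold change of 0.28 that did not pass (adjusted p = 0.127, edgeR).

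**Figure D4:**
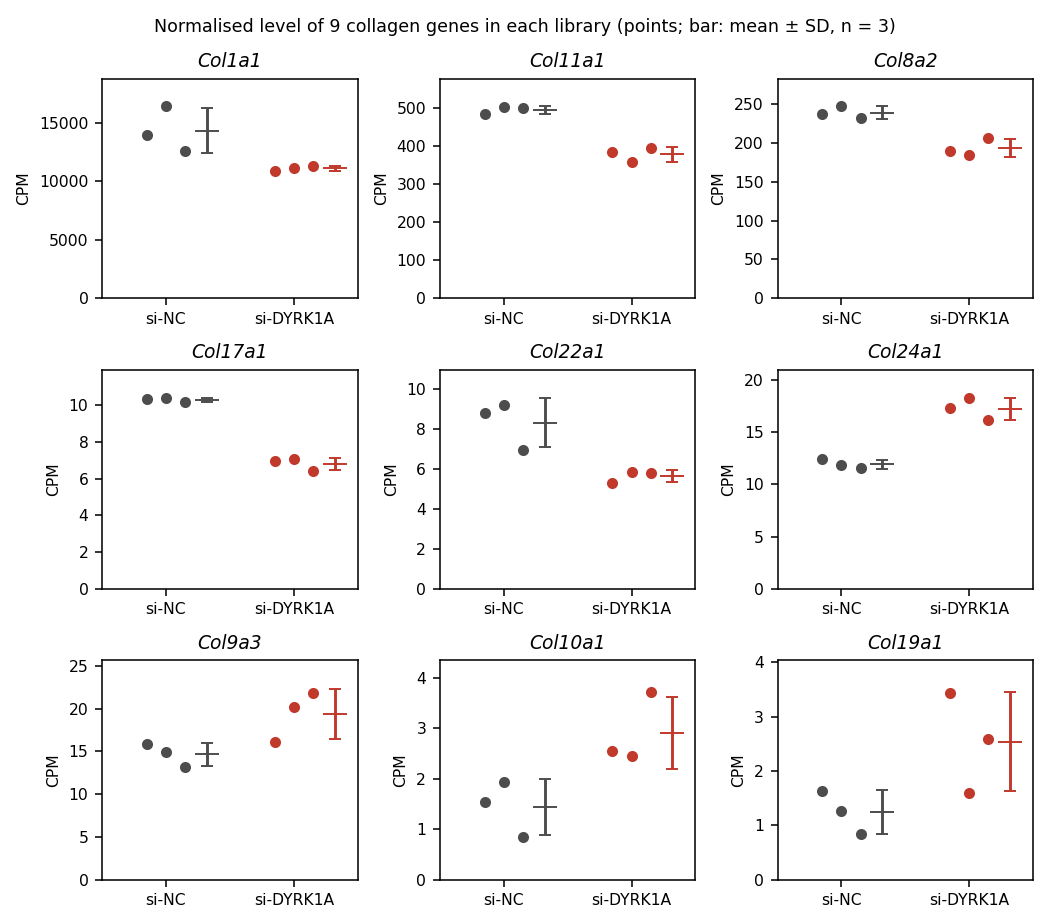
Normalised level (y axes, CPM, from 0) of Col1a1 and of the 8 collagen genes that passed the test, with 1 point per library and bars for the mean ± SD (n = 3). In Col11a1, Col8a2, Col17a1, Col22a1, Col24a1, Col9a3 and Col10a1 the groups do not overlap, in Col19a1 they do, and Col1a1 did not pass the test although its groups do not overlap.

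Promoter sequences are shown for Col11a1, which had the smallest adjusted p of all collagen genes, and for the type VIII chains, which moved apart. Those of the other fibrillar rows that passed are not shown. The stretch between Col4a2 and Col4a1, which start side by side, is also given, although no type IV row passed. All sequences are the bases just before the gene start in RefSeq on the GRCr8 assembly, a different build from the table's, on the plus strand of the chromosome. Capitals mark GGGCGG (a GC box), CCAAT and TATAAA on either strand, overlapping matches included.
Col11a1 (chr2:204509036-204509135): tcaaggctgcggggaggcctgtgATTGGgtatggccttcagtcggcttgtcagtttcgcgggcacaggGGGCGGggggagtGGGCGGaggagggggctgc
between Col4a2 and Col4a1 (chr16:84885521-84885596): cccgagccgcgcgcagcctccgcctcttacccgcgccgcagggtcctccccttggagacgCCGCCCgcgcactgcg
Col8a1 (chr11:56246682-56246781): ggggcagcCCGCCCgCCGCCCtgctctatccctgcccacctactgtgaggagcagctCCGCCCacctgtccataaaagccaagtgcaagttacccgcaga
Col8a2 (chr5:143870669-143870768): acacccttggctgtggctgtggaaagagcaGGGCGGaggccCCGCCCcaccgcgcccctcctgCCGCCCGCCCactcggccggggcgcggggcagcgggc
The windows held 2, 1, 3 and 4 GC boxes in this order, and 1 CCAAT match stood in that of Col11a1. Of the 34 collagen genes with an entry in the RefSeq table, 17 had a GC box within 100 bases before the start, compared with 21.6% of all 33469 windows of that length. CCAAT was found in 3 of the 34 and TATAAA in 1, beside 17.1% and 5.78% of all windows. Both type VIII promoters held GC boxes.

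The type IV genes lie in head-to-head pairs that share a promoter region, and 0 of the 3 rows and 4 covering rows tested passed by edgeR with the count filter, DESeq2 or limma-voom, nor did any have an unadjusted p below 0.05. Col4a1 (ENSRNOG00000016281, chromosome 16, 83522162 to 83632153, plus strand), one of the chains of the common basement membrane network, had 7179, 8172 and 6864 CPM in si-NC and 7298, 7587 and 7834 CPM in the si-DYRK1A-labelled libraries. The ranges overlapped, with a log2 fold change of 0.032 (standard error 0.0581, 95% confidence interval -0.10 to 0.16, adjusted p = 0.780, edgeR) that turned to -0.027 without si-NC replicate 3. The row over its partner Col4a2 (chromosome 16, 83350908 to 83524914, minus strand) had 609, 646 and 610.1 CPM and 598, 724 and 733 CPM. Here si-DYRK1A replicate 1 lay below the si-NC libraries and the other two above them, and the log2 fold change of 0.14 (standard error 0.0742, 95% confidence interval -0.030 to 0.31, adjusted p = 0.276, edgeR) did not pass. Without that library it did (adjusted p = 0.00309, edgeR), and also with all libraries and no filter on low counts (adjusted p = 0.0359, edgeR). The row over Col4a2 overlaps the start of Col4a1 on the opposite strand in the table, whereas RefSeq places the intervening sequence printed above between their starts. Whether the counting used strand is not stated in the sources used here, so reads of the overlap cannot be assigned to either gene. The FPKM ratio of Col4a1 to the row over Col4a2 was 17.0 ± 1.01 and 15.9 ± 1.34 (SD, n = 3 each; exact permutation test, p = 0.3, adjusted p = 0.375).

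Col4a3, Col4a4 and Col4a5 encode the chains of the network of the kidney glomerulus and other specialised membranes. Col4a3 had 403 to 587 counts per library and a log2 difference of -0.19 (adjusted p = 0.187, edgeR), and its start lies 373 bases from that of Col4a4. Col4a4 gave 0.54, adjusted p = 0.316 on 11 to 30 counts per library (edgeR). The row over Col4a4 had 4.03, 2.54 and 4.35 CPM in si-NC and 1.76, 3.86 and 3.72 CPM in the others (log2 fold change -0.22, adjusted p = 0.677, edgeR). The sign of this row turned to 0.062 without si-DYRK1A replicate 1, the lowest library. The row over Col4a5 had 23.7, 25.0 and 21.4 CPM and 24.7, 16.9 and 19.2 CPM, which overlapped (log2 fold change -0.20, adjusted p = 0.302, edgeR). Without si-DYRK1A replicate 1 it passed as lower (adjusted p = 0.0452, edgeR). For Col4a6, the chain paired with Col4a5 in smooth muscle, the row over the gene had 11.9, 11.5 and 11.7 CPM and 10.1, 11.7 and 10.3 CPM and did not pass (log2 fold change -0.13, adjusted p = 0.569, edgeR). No difference in these rows passed with all libraries in.

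By the genes' own rows, FACIT collagens were the class with the most genes passing for its size and with the fewest counts. These rows held 0.0036% to 0.0048% of a library. The 3 covering rows of the class held 0.031% to 0.036%, and 0 of them passed. However, DESeq2 called 0 of the 6 genes tested by their own rows, giving no adjusted p for Col19a1. Col9a3 (ENSRNOG00000009531, chromosome 3, 176102351 to 176124306, plus strand) encodes a chain of type IX collagen, which coats cartilage fibrils, and had 15.9, 14.9 and 13.2 CPM in si-NC and 16.1, 20.2 and 21.9 CPM in the si-DYRK1A-labelled libraries. The groups did not overlap, though si-DYRK1A replicate 1 lay just above the highest si-NC library. Its log2 difference came to 0.40 (standard error 0.122, 95% confidence interval 0.15 to 0.66, adjusted p = 0.0269, edgeR). The call was lost without replicates 2 (adjusted p = 0.0520, edgeR) or 3 (0.1202) of si-NC, without replicates 2 (0.118) or 3 (0.182) of si-DYRK1A, and by DESeq2 (0.0911) and limma-voom (0.0664). The other type IX chains did not pass, with log2 fold changes of -0.18 for Col9a1 (adjusted p = 0.663, edgeR) and 0.0014 for Col9a2 (adjusted p = 0.997, edgeR). The sign for Col9a2 depended on the scaling. Whether Col9a3 differed from them was not tested.

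Col22a1 (ENSRNOG00000024824, chromosome 7, 113015747 to 113228439, minus strand), known from tissue junctions such as that of muscle and tendon, had 8.82, 9.22 and 6.94 CPM in si-NC and 5.28, 5.84 and 5.80 CPM in the si-DYRK1A-labelled libraries. It was lower in all of the latter, 1.47-fold on average, with a log2 fold change of -0.56 (standard error 0.172, 95% confidence interval -0.92 to -0.20, adjusted p = 0.0294, edgeR). Leaving out any one library except si-NC replicate 3 ended the call, with adjusted p of 0.0943 and 0.113 without si-NC replicates 1 and 2, and of 0.0990, 0.0723 and 0.0728 without si-DYRK1A replicates 1, 2 and 3 (edgeR). DESeq2 gave an adjusted p of 0.0984.

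Col19a1 (ENSRNOG00000012759, chromosome 9, 30515089 to 30844199, minus strand), a FACIT-like collagen of basement membrane zones, had only 17, 15 and 10 counts in si-NC and 39, 17 and 30 counts in the si-DYRK1A-labelled libraries. These were 1.63, 1.27 and 0.836 CPM and 3.43, 1.60 and 2.60 CPM, and si-DYRK1A replicate 2 lay just below si-NC replicate 1, so that the groups overlapped. The log2 fold change of 1.04 (standard error 0.352, 95% confidence interval 0.31 to 1.77, adjusted p = 0.0494, edgeR) was close to the threshold. It passed in only 5 of 14 alternatives. The adjusted p was 0.0514, 0.0930 and 0.175 without si-NC replicates 1, 2 and 3, and 0.252 and 0.124 without si-DYRK1A replicates 1 and 3 (edgeR). Col20a1, with 37 to 72 counts per library, was higher in every si-DYRK1A-labelled library and did not pass (log2 fold change 0.50, adjusted p = 0.108, edgeR).

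The FACIT genes with the most reads were those whose own rows were at 0. Col12a1 and Col14a1 encode FACIT collagens of dense connective tissue and muscle. The row over Col12a1 (chromosome 8, 87040799 to 87158368, minus strand) had 259.9, 279 and 263 CPM in si-NC and 253, 248 and 257 CPM in the si-DYRK1A-labelled libraries. All of the latter were below the former, by little, and the log2 fold change of -0.083 (standard error 0.0447, 95% confidence interval -0.18 to 0.0095, adjusted p = 0.238, edgeR) did not pass. The row over Col14a1, which also overlaps 2 other annotated genes, had 91.8, 78.3 and 95.9 CPM and 88.6, 65.9 and 88.2 CPM, with si-DYRK1A replicate 2 the lowest (log2 fold change -0.13, adjusted p = 0.647, edgeR). The row over Col16a1, whose own row had 0 counts in each si-NC library and 1 count in each of the others, had 27, 20 and 12 counts and 6, 10 and 20 counts. Its levels of 2.59, 1.69 and 1.00 CPM and 0.528, 0.942 and 1.73 CPM overlapped (log2 fold change -0.70, adjusted p = 0.329, edgeR). Neither row over Col14a1 or Col16a1 allowed a difference to be told from the spread.

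Among the other collagens, the type VIII chains moved in opposite directions. Type VIII collagen is a short-chain network collagen of vessel walls and of the subendothelial matrix, built from the chains of Col8a1 and Col8a2. Col8a2 (ENSRNOG00000010841, chromosome 5, 144308611 to 144335172, plus strand) had 238, 248 and 232 CPM in si-NC and 189.9, 185 and 207 CPM in the si-DYRK1A-labelled libraries. No libraries overlapped, and Col8a2 was 1.24-fold lower, with a log2 fold change of -0.31 (standard error 0.0495, 95% confidence interval -0.41 to -0.20, adjusted p = 1.63e-04, edgeR). Col8a1 had 0 counts in its own row, and the row over Col8a1 (chromosome 11, 44877859 to 45009230, plus strand) had 113, 115 and 130.0 CPM and 154, 136 and 153 CPM. This row was higher in each si-DYRK1A-labelled library, with a log2 fold change of 0.31 (standard error 0.0609, 95% confidence interval 0.18 to 0.43, adjusted p = 0.00168, edgeR). With each library left out in turn, both calls held. On log2 of FPKM with limma, the call of the row over Col8a1 was lost (adjusted p = 0.0723 with a pseudocount of 1). The FPKM ratio of the row over Col8a1 to Col8a2 was 0.348, 0.341 and 0.411 in si-NC and 0.596, 0.541 and 0.544 in the si-DYRK1A-labelled libraries. The ratio was 1.53-fold higher and the groups lay apart (exact permutation test, p = 0.1, adjusted p = 0.25 over the 5 ratios, this ratio having been added after the data were seen).

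Col17a1 and Col13a1 encode collagens that cross the cell membrane, Col17a1 being known from the hemidesmosomes of epithelia. Col17a1 (ENSRNOG00000012110, chromosome 1, 267417459 to 267463705, minus strand) had 108, 123 and 122 counts in si-NC and 79, 75 and 74 counts in the si-DYRK1A-labelled libraries, or 10.4, 10.4 and 10.2 CPM and 6.95, 7.06 and 6.40 CPM. The values of each group lay close together and the groups well apart, Col17a1 being 1.52-fold lower, with a log2 fold change of -0.60 (standard error 0.149, 95% confidence interval -0.91 to -0.29, adjusted p = 0.00773, edgeR). It was called under 14 of 17 alternatives, the exceptions being those on log2 FPKM (adjusted p = 0.0577 to 0.0958, limma). The summed epicardial markers were lower in the same libraries, and their part in this difference was not tested. Col13a1 had 39 to 88 counts per library and a log2 fold change of 0.43 that did not pass (adjusted p = 0.173, edgeR).

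Col10a1 (ENSRNOG00000051399, chromosome 20, 41184287 to 41189633, plus strand), the network collagen of hypertrophic cartilage, had 16, 23 and 10 counts in si-NC and 29, 26 and 43 counts in the si-DYRK1A-labelled libraries. Its levels were 1.53, 1.95 and 0.836 CPM and 2.55, 2.45 and 3.72 CPM, without overlap, 2.02-fold higher in the latter. On the log2 scale the groups differed by 1.02 (standard error 0.326, 95% confidence interval 0.34 to 1.69, adjusted p = 0.0377, edgeR). Leaving out any library other than si-NC replicate 2 ended the call, with adjusted p of 0.0813 and 0.162 without si-NC replicates 1 and 3, and of 0.0584, 0.0613 and 0.211 without si-DYRK1A replicates 1, 2 and 3 (edgeR). By limma-voom it was 0.0625. An unannotated row on the opposite strand at Col10a1 held 297 counts over the 6 libraries and did not pass (log2 fold change 0.14, adjusted p = 0.747, edgeR). If the counting did not use strand, reads of both rows cannot be told apart.

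Type VI collagen forms beaded filaments around muscle and connective tissue cells, and its chains were counted very unevenly. Col6a2 (ENSRNOG00000001254, chromosome 20, 12773427 to 12801180, plus strand) had 1929.6, 1953 and 1799.8 CPM in si-NC and 1713, 1787 and 1850.1 CPM in the si-DYRK1A-labelled libraries. The ranges overlapped at their edges, and the log2 fold change of -0.087 (standard error 0.0426, 95% confidence interval -0.18 to 0.0018, adjusted p = 0.193, edgeR) did not pass, though it did without si-NC replicate 3 (adjusted p = 0.0439, edgeR). Col6a1 (ENSRNOG00000001249, chromosome 20, 12658065 to 12675561, plus strand), its partner, had 78.4, 86.5 and 77.0 CPM and 73.4, 83.9 and 80.1 CPM. These overlapped (log2 fold change -0.028, adjusted p = 0.831, edgeR), with a sign that turned without si-NC replicate 2 or si-DYRK1A replicate 1 (0.024 each). Per length, Col6a1 stood at 0.0510 ± 0.00220 of Col6a2 in si-NC and 0.0532 ± 0.00268 in the others (SD, n = 3 each; exact permutation test, p = 0.4, adjusted p = 0.4). The row over Col6a1 added 16, 13 and 16 counts and 21, 17 and 15 counts, or 1.53, 1.10 and 1.34 CPM and 1.85, 1.60 and 1.30 CPM (log2 fold change 0.26, adjusted p = 0.691, edgeR). In both groups the row of Col6a1 thus held a small part of the level of Col6a2.

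Col6a3, the third chain of the common type VI filament, had 23, 27 and 35 counts in si-NC and 36, 39 and 60 counts in the si-DYRK1A-labelled libraries. The latter were higher without overlap in CPM, and the log2 fold change of 0.69 (standard error 0.254, 95% confidence interval 0.17 to 1.22, adjusted p = 0.0715, edgeR) did not pass. Summed with the 15 counts of its covering row, it passed (log2 fold change 0.79, adjusted p = 0.0299, edgeR). Col6a5 had 13 to 45 counts per library and a log2 difference of 0.84 (adjusted p = 0.0869, edgeR), which passed with no filter on low counts (adjusted p = 0.0439, edgeR) and without si-NC replicate 1 (adjusted p = 0.0225, edgeR). The row over Col6a6 had 6.81, 6.26 and 8.53 CPM in si-NC and 10.4, 6.69 and 6.40 CPM in the others, with si-DYRK1A replicate 1 the highest (log2 fold change 0.12, adjusted p = 0.753, edgeR). Its sign turned to -0.14 without that library.

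Of the remaining collagens, Col15a1 (ENSRNOG00000060381, chromosome 5, 62840360 to 62950240, plus strand), a multiplexin of basement membrane zones in muscle and vessels, varied widely between libraries. It had 64.5, 47.7 and 66.2 CPM in si-NC and 47.0, 84.9 and 48.6 CPM in the si-DYRK1A-labelled libraries, where replicate 2 stood far above the rest. Its log2 difference came to 0.014 (standard error 0.315, 95% confidence interval -0.85 to 0.87, adjusted p = 0.986, edgeR), and -0.32 without si-DYRK1A replicate 2, so that no difference was detectable. Col23a1, a transmembrane collagen, was listed as a row at 34903343 to 34933539 of chromosome 10 with 7 to 41 counts per library and a second row at 36741434 to 37028367 with 14 to 27. Their log2 fold changes were 1.08 (adjusted p = 0.0584, edgeR) and 0.46 (adjusted p = 0.424, edgeR). The first row passed with no filter on low counts (adjusted p = 0.00668, edgeR) and without si-NC replicate 2 (adjusted p = 0.00618, edgeR), and both are uncertain, as reads may be split between such rows. Col26a1 gave -0.081, adjusted p = 0.871 (edgeR), turning to 0.014 without si-DYRK1A replicate 2. Col25a1 (48 counts over the 6 libraries), Col28a1 (25) and Col6a4 (14) had too few counts to be tested, as had the rows over Col7a1 (22), Col18a1 (8) and Col5a3 (4).

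Before collagen chains leave the cell their prolines and lysines are hydroxylated, they fold with the help of chaperones, their ends are then cut off outside, and lysyl oxidases cross-link them. Of 47 listed genes for these steps and for collagen receptors, 45 were in the table and 27 were tested. By the edgeR test 9 were lower and 2 higher in the si-DYRK1A-labelled libraries, compared with 7.19% and 8.03% of all features, and the median log2 fold change was -0.15. Of the 10 tested genes for chain modification, 5 were lower and 0 higher by edgeR (7 and 1 at an unadjusted p below 0.05, with no share of all features counted at that level). The lysyl hydroxylases all were among them: Plod1 had 465, 451 and 438 CPM in si-NC and 358, 363 and 352 CPM in the si-DYRK1A-labelled libraries. Its groups lay well apart, with a log2 fold change of -0.33 (standard error 0.0419, 95% confidence interval -0.42 to -0.25, adjusted p = 7.81e-06, edgeR). Plod3 gave -0.22, adjusted p = 0.00120 (edgeR), and Plod2 -0.16, adjusted p = 0.00544 (edgeR). P4hb, the shared subunit of the prolyl 4-hydroxylases, gave -0.13, adjusted p = 0.0198 (edgeR), but not without si-DYRK1A replicates 1 (0.0634), 2 (0.0865) or 3 (0.0768). P3h4, part of the complex for lysyl hydroxylation, gave -0.26, adjusted p = 0.0260 (edgeR). That call was lost without si-NC replicates 1 (0.119) or 2 (0.10004) or si-DYRK1A replicates 1 (0.117) or 3 (0.0627), and by DESeq2 (0.0608) and limma-voom (0.0599). Both P4hb and P3h4 also lay under unannotated rows, which were not examined.

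**Figure D5:**
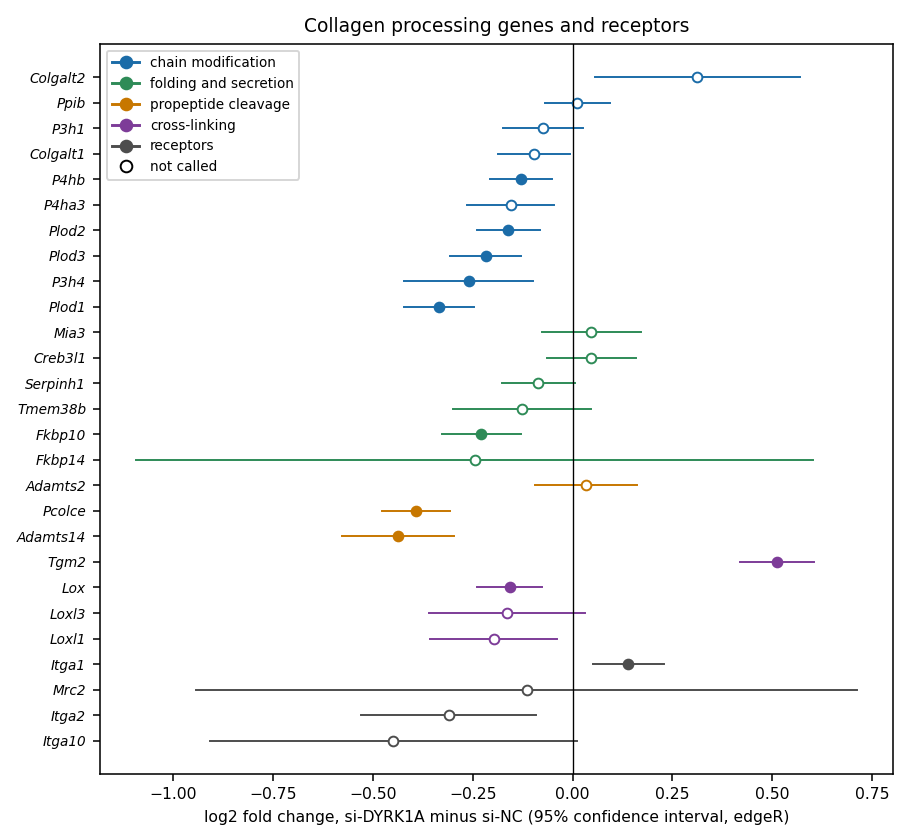
Log2 fold change (x axis, si-DYRK1A-labelled libraries minus si-NC, with 95% confidence intervals from edgeR, n = 3 libraries per group) of the 27 tested genes for collagen processing and collagen receptors (y axis), coloured by role, with filled circles for genes that passed the test. Of the 11 filled circles, 9 lie below 0, and those of Tgm2 and Itga1 lie above.

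Fkbp10, a prolyl isomerase and collagen chaperone, gave -0.23, adjusted p = 0.00192 (edgeR), as the only one of 6 tested folding and secretion genes to pass. Of the genes for propeptide cleavage, Pcolce, the enhancer of procollagen C-proteinase, had 1315, 1290.2 and 1284 CPM in si-NC and 941, 1002 and 1019.7 CPM in the si-DYRK1A-labelled libraries. It was 1.31-fold lower with no overlap, a log2 fold change of -0.39 (standard error 0.0410, 95% confidence interval -0.48 to -0.31, adjusted p = 6.87e-07, edgeR). Adamts14, a procollagen N-proteinase, gave -0.44, adjusted p = 8.74e-05 (edgeR). Among the cross-linking enzymes, Lox gave -0.16, adjusted p = 0.00709 (edgeR). Tgm2, a transglutaminase that joins matrix proteins by another bond, moved the other way, with 795, 839.8 and 745 CPM against 1102, 1137 and 1154 CPM. It was higher in each si-DYRK1A-labelled library, with a log2 fold change of 0.51 (standard error 0.0448, 95% confidence interval 0.42 to 0.60, adjusted p = 5.79e-08, edgeR). Itga1, a chain of a collagen-binding integrin, gave 0.14, adjusted p = 0.0306 (edgeR). With each library left out in turn, its call held only without si-NC replicate 2, the others giving adjusted p of 0.0569 to 0.148 (edgeR). It was also lost with scaling by library size alone (0.0779) and with no filter on low counts (0.0577, edgeR).

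Counting the unannotated rows over 16 list members that could not be tested, 15 more rows were tested, an addition chosen with the data in view. Of these, the rows over P4ha1 (log2 fold change -0.23, adjusted p = 0.00280), Loxl2 (-0.23, adjusted p = 9.57e-04) and Loxl4 (-0.52, adjusted p = 4.21e-05) were lower by edgeR. P4ha1 is a catalytic subunit of prolyl 4-hydroxylase, and Loxl2 and Loxl4 are lysyl oxidases. The row over Tll1, a procollagen C-proteinase, was higher (0.84, adjusted p = 0.00938, edgeR). Of the collagen chains themselves, 19 of the 30 tested collagen rows had a positive log2 fold change, beside 50.4% of all features.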

How the data were processed

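RNA-seq counts of 6 libraries were analysed, 3 of si-NC and 3 of si-DYRK1A, grouped by their sample labels. Per the study's methods, the authors mapped reads to Rnor_6.0 with HISAT2, whereas the submitters' processing notes name Bowtie 0.12.2 and mm8, a mouse build. The positions in the table are rat positions. Labels and methods also differ in library kit (TruSeq, NEBNext) and in the age of the rats (postnatal day 1, 1 to 2 days). The authors deposited raw counts per gene and FPKM values, which are counts scaled by gene length and by one constant per library. How reads were counted, with which annotation release and whether by strand, is not given in the sources used here.

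Groups were compared in R 4.3.3 with edgeR 4.0.16 (glmQLFit and glmQLFTest), using TMM scaling, filterByExpr (minimum count 10, minimum total 15) and a robust fit. Two-sided p-values were adjusted by Benjamini-Hochberg over 15513 features at a threshold of 0.05, with no threshold on the fold. CPM values use TMM library sizes, and FPKM was used for levels between genes and for chain ratios. Single values were compared by exact two-sided permutation tests, which cannot give a p below 0.1 here. P-values measure the spread between these cultures. The biological coefficient of variation was 8.82%.

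Collagen members, classes, processing genes and markers were chosen with earlier results of these data known. Values in every library are given for the collagen genes that passed, the 10 with the highest mean FPKM and each tested covering row. Processing genes were named where they passed, and genes outside this rule were named after their values were seen. Alternatives were DESeq2 1.42.0, limma-voom and limma 3.58.1 on log2 FPKM (pseudocounts 1 and 0.1, FPKM above 0.5 in at least 3 libraries, or no filter), upper-quartile or RLE normalization, scaling by library size alone, other count filters, a replicate block, leaving out each library, a threshold of 0.01 and, for covering rows, 90% overlap or sums with the gene. Ratios with covering rows and covering rows of processing genes were added after the data were seen. The fit was first tested on simulated data.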

Additional observations from a re-analysis of the deposited data

How the results depend on the processing

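Over 55 single values and 912 comparisons with an alternative, 773 kept direction and side of the threshold, 87 lost the call, 17 gained it and 35 changed sign, the last in 10 values with no call. Col11a1, Lox, Pcolce, Plod1, Plod2, Plod3 and Tgm2 passed under every alternative run for them. The planned type I ratio was not run, its partner chain being not analysed here, nor were own-row ratios of types IV and VIII, as Col4a2 and Col8a1 had 0 counts. Depth limits the rows with few counts, such as Col19a1 with 10 to 39 per library. Deviations of same-numbered libraries correlated at 0.0578, -0.0261 and -0.00409. These values gave no sign of pairing by replicate number but cannot show that the libraries were unpaired. With the replicate block, Col1a1 (adjusted p = 0.00353, edgeR), Col6a5 (0.0403) and the first row of Col23a1 (0.0252) passed, and P4hb (0.0552) and Itga1 (0.0633) did not.

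Of 4 higher collagen genes, 1 remained in number by DESeq2, limma-voom and log2(FPKM + 1) or log2(FPKM + 0.1), 0 by log2(FPKM + 1) without a filter, and 1 at an adjusted p below 0.01. DESeq2 gave no adjusted p for Col10a1 and Col19a1, and Col19a1 did not pass the FPKM filter. DESeq2 and the filtered FPKM settings therefore could not call Col19a1. By limma-voom (adjusted p = 0.102) and on log2(FPKM + 1) without a filter (adjusted p = 0.343, limma) Col19a1 was tested and did not pass. Leaving out single libraries, the number of higher genes was 1 to 4. Of 4 lower genes, 2 passed by both filtered FPKM settings and 1 without a filter. The 2 fibrillar genes became 1 without the FPKM filter and 2 to 4 with a library left out. The 3 FACIT genes became 0 by DESeq2, by each FPKM setting and at 0.01, 1 by limma-voom, and 0 to 1 with a library left out. The 3 other collagens became 5 with no count filter and 5 with the replicate block, 1 by both filtered FPKM settings and 0 without that filter. The 3 covering rows became 0 by each FPKM setting, 1 at 0.01 and 1 to 3 with a library left out. The 11 processing genes became 6 without the FPKM filter. Over all features, 2360 calls became 1199 and 1180 with pseudocounts of 1 and 0.1, 591 without the FPKM filter, 1307 at 0.01 and 2269 with the replicate block. The causes were not tested.

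Changes of sign concerned values with no call. With library size only they were -0.0062 for Col3a1, -0.012 for Col15a1 and -0.025 for Col9a2. For Col15a1 the replicate block gave -0.019, limma-voom -0.031, log2(FPKM + 1) with or without filter -0.024 and log2(FPKM + 0.1) -0.029. For Col9a2 DESeq2 gave -0.0035, RLE -0.0036, upper quartile -0.0013, no count filter -0.0078, the replicate block -0.0028, limma-voom -0.0028, log2(FPKM + 1) with or without filter -0.0089 and log2(FPKM + 0.1) -0.014. The row over Col5a2 gave 0.0015 by limma-voom. Leaving out each library in turn, the ranges were -0.025 to 0.058 for Col3a1, -0.027 to 0.11 for Col4a1, -0.071 to 0.024 for Col6a1, -0.32 to 0.16 for Col15a1, -0.13 to 0.17 for Col9a2, -0.10 to 0.19 for Col11a2, -0.26 to 0.014 for Col26a1, -0.080 to 0.094 for the row over Col5a2, -0.43 to 0.062 for the row over Col4a4 and -0.14 to 0.25 for the row over Col6a6.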

Other observations

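Unannotated rows on the opposite strand also overlapped collagen genes. At Col1a1, such a row over 33.7% of the gene held 109, 119 and 96 counts in si-NC and 104, 80 and 93 counts in the si-DYRK1A-labelled libraries, where Col1a1 itself had 118459 to 194060. The row had a log2 fold change of -0.20 and did not pass (adjusted p = 0.440, edgeR). At Col9a2, a row over 23.0% of the gene held 3201 counts over the 6 libraries, more than Col9a2 itself (538), but also overlapped 2 other annotated genes, and did not pass (log2 fold change -0.058, adjusted p = 0.647, edgeR). The origin of these counts was not tested.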
